A study of Papio hamadryas with 14 samples.

Results

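Genes of acid-base transport were followed in the baboon, Papio hamadryas, in whole kidney from fetal life to adulthood. They were taken by gene symbol from the platform annotation: subunits of the vacuolar proton pump (ATP6V0 and ATP6V1), carbonic anhydrases (CA plus a number), the anion and bicarbonate transporter families SLC4A and SLC26A, the sodium-proton exchangers SLC9A, and RHCG, RHBG and FOXI1. Of 9580 genes measured with a probe set of 1 symbol, 38 met that rule: 7 V0 and 9 V1 pump subunits, 8 carbonic anhydrases or related proteins, 8 SLC4A genes, 5 SLC26A genes and SLC9A2. RHCG, RHBG, FOXI1 and the other members of these families were not analysed here. Where a gene had several probe sets, the one brightest on average in the fetal kidneys stood for it.

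The fetal stages were 60, 90, 125 and 160 days of gestation, written 60dG to 160dG, with 2 kidneys at 60dG and 3 at each later stage. The 3 adults were 6, 12 and 7 years old (adult replicates 1, 2 and 3). Fetal replicates are labelled biological, and the labels used here give tissue and age alone. Total RNA was hybridised to human Affymetrix arrays, so baboon bases that differ from the human probes can lower a signal, and levels of different genes cannot be set against each other. The fetal arrays are of 1 type and the adult arrays of another type with the same probe sets. Markers of kidney tubules were measured as labelled: LRP2, the endocytic receptor of the proximal tubule, averaged 803 at 60dG and 2654 at 160dG.

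The kidney keeps blood pH steady by reclaiming filtered bicarbonate and by secreting acid. In the proximal tubule, carbonic anhydrases speed the exchange between carbon dioxide and bicarbonate on both sides of the luminal membrane, and the sodium-bicarbonate cotransporter SLC4A4 returns bicarbonate to the blood. In the collecting duct, acid-secreting intercalated cells drive protons into the urine with the vacuolar proton pump, whose V1 sector splits ATP and whose V0 sector carries protons through the membrane. Most pump subunits also serve lysosomes and endosomes in every cell, while some isoforms, such as ATP6V1B1, are enriched in intercalated cells. In whole-organ RNA, a change in the number of cells of a type and a change in RNA per cell cannot be told apart.

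Of the 21 genes bright enough to be tested, those that differed among the fetal stages were CA12, CA2, SLC4A4, SLC26A2 and a few pump subunits. CA12 and CA2 are carbonic anhydrases, SLC4A4 is the cotransporter and SLC26A2 a sulfate transporter. Each of the tested genes that passed between 160dG and 60dG was higher at 160dG. Signals were compared as log2(signal + 16) with limma over all 11 fetal arrays, with Benjamini-Hochberg adjustment over 5278 genes brighter on average than the median probe set (a signal of 178), and a gene was called at an adjusted p under 0.05. That filter kept 21 of the 38 genes and left 17 dim genes untested. ATP6V1B1 passed it only through the stages after 60dG. In a fit without that filter, 2 dim genes were also called between 160dG and 60dG, SLC4A1 higher and SLC4A3 lower at 160dG. A moderated F over the 4 stages called 8 of the 21 genes, beside 18.2% of all genes tested. Between 160dG and 60dG, 7 were called, all higher (6.92% of all genes were called higher and 11.6% in either direction). The median log2 difference of the 21 genes was 0.45, beside -0.01 over all genes. For 12 of the 21, every 160dG array lay above both 60dG arrays, which held for 21.0% of all genes tested.

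**Figure D1:**
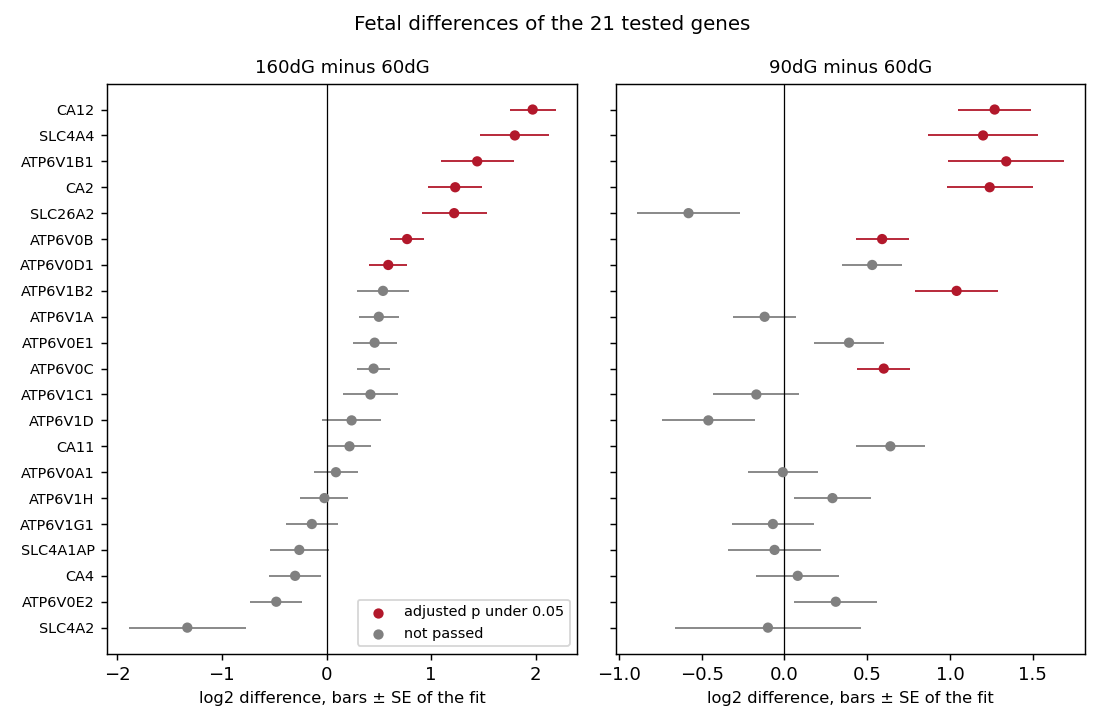
Log2 differences of the 21 tested genes, 160dG minus 60dG on the left and 90dG minus 60dG on the right, with bars of ± 1 SE of the limma fit; red points passed at an adjusted p under 0.05 and grey points did not. CA12 and SLC4A4 have the largest differences on the left (1.97 and 1.80), and SLC26A2 passed on the left only, with a difference of -0.58 on the right.

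Between 90dG and 60dG, 7 of the 21 genes were called as well, all higher (5.53% of all genes were called higher and 9.11% in either direction). They were CA12, CA2, SLC4A4, ATP6V1B1, ATP6V1B2, ATP6V0B and ATP6V0C, and the median difference of the 21 genes was 0.31, beside 0.04 over all genes. Both comparisons share the 60dG arrays. The 90dG arrays need care: for the GAPDH controls, 3' signal over 5' signal, a sign of RNA or labelling quality, was 2.465 and 3.434 in 90dG replicates 2 and 3 and lay between 1.62 and 1.99 on the other fetal arrays. With the ratio as a covariate, ATP6V1B2 and CA12 were the only calls of the 7 left, while calls over all genes fell from 481 to 217. Without those replicates 1 array stands for 90dG, and most of the 7 calls were lost, as were most over all genes. The differences of the 7 then ran from 0.50 (ATP6V0B) to 1.38 (ATP6V1B2). From 90dG to 125dG limma called 0 of the 21 genes, with 5 at an unadjusted p under 0.05 (5.17% of all genes were called), and from 125dG to 160dG it called 0, with 3 at an unadjusted p under 0.05 (0.322% of all genes were called). Only 2 arrays stand for 60dG, and leaving out either lost calls in both comparisons, among these genes and over all genes. Between 90dG and 60dG, 4 genes were called without 90dG replicate 2 and 4 without 90dG replicate 3. Over all genes, calls then fell from 481 to 295 and 241.

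Among the carbonic anhydrases, the membrane-bound CA12 and the cytosolic CA2 rose. CA12 has its active site outside the cell and is found on the basolateral side of tubule cells. Its signal was 324 and 270 at 60dG, 557, 993 and 718 at 90dG, 842, 649 and 759 at 125dG, and 1211, 1120 and 1285 at 160dG. All 160dG arrays thus lay above all other fetal arrays, and both 60dG arrays below all others. The difference between 160dG and 60dG was 1.97 ± 0.22 (log2 ± SE), about 3.91-fold, with a limma adjusted p of 7.34e-05, and it passed in all 22 alternative settings (adjusted p from 3.49e-05 to 0.00181). Between 90dG and 60dG the difference was 1.27 ± 0.22 (adjusted p = 0.00501), and between 160dG and 125dG it was 0.68 ± 0.20, which did not pass (adjusted p = 0.262) although the arrays did not overlap.

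CA2, the main cytosolic carbonic anhydrase of the kidney, was low at 60dG. Its signal was 561 and 758 at 60dG, 1183, 1872 and 1734 at 90dG, 2151, 1552 and 1145 at 125dG, and 1384, 1638 and 1632 at 160dG. The 2 arrays at 60dG were the lowest of the 11, and the 3 later stages overlapped. CA2 was 1.23 ± 0.26 higher at 160dG than at 60dG (limma, adjusted p = 0.00623) and 1.24 ± 0.26 higher at 90dG (adjusted p = 0.0115). Without 60dG replicate 1, the call at 160dG was lost (1.01, adjusted p = 0.0994), and the call at 90dG was lost in 3 of 21 settings.

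CA4, a lipid-anchored enzyme of the proximal brush border and of capillaries, gave no fetal call. It had signals of 255 and 354 at 60dG, 271, 334 and 354 at 90dG, 201, 236 and 308 at 125dG, and 203, 232 and 294 at 160dG, so the stages overlapped, with a difference of -0.30 ± 0.25 between 160dG and 60dG (adjusted p = 0.507). CA11, a related protein without enzyme activity, had 289 to 607 over the fetal arrays and was highest at 90dG, with 607, 481 and 459, against 362 and 289 at 60dG (0.64 ± 0.21, adjusted p = 0.0813). CA1, CA3, CA8 and CA10 lay below the filter. CA1, the carbonic anhydrase of red cells, scattered within 60dG (190 and 34.5) and 125dG (110, 211 and 33.1). Its 90dG arrays, at 239, 221 and 363, lay above all of those, and it had 257, 159 and 164 at 160dG. The difference between 90dG and 60dG did not pass in the limma fit without a filter (1.48 ± 0.60, adjusted p = 0.193). For the other CA1 probe set that difference was -0.45.

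SLC4A4, which carries bicarbonate with sodium across the basolateral membrane of the proximal tubule, rose too. Its signal was 657 and 836 at 60dG, 1364, 2903 and 1287 at 90dG, 2355, 1633 and 1773 at 125dG, and 2502, 1886 and 3790 at 160dG. Both 60dG arrays lay below the other 9, whose stages overlapped. The difference between 160dG and 60dG was 1.80 ± 0.33 (limma, adjusted p = 0.00291) and passed in all 22 alternative settings (adjusted p from 0.000669 to 0.0472). That between 90dG and 60dG was 1.20 ± 0.33 (adjusted p = 0.0392) and was lost in 9 of 21 settings. Proximal tubule markers moved with it: 8 of 9 tested markers were higher at 160dG and none lower, and the summed signal of the 11 measured ones was 7809 to 18486 at 160dG, against 2464 to 3078 at 60dG. Their part in the difference of SLC4A4 was not tested.

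Among the chloride-bicarbonate exchangers of the SLC4A family, SLC4A1, known as band 3 in red cells and as the basolateral exchanger of acid-secreting intercalated cells, had 25.4 and 41.7 at 60dG, 150, 158 and 57.2 at 90dG, 118, 176 and 141 at 125dG, and 288, 206 and 226 at 160dG. Every 160dG array lay above every earlier one, and both 60dG arrays below all later ones. Its mean fell below the filter. In the fit without a filter over 9580 genes, in which 6.51% were called between these stages, its difference between 160dG and 60dG was 2.38 ± 0.39 (limma, adjusted p = 0.00207), the widest among all 38 genes. Red cell markers also moved between these stages, in both directions. Of the 4 tested, the adult globin HBB rose (1.08 ± 0.22) and the embryonic globin HBE1 fell (-3.62 ± 0.36), while RHAG and SLC25A37 had differences of 0.07 and 0.20 that did not pass. The summed signal of 11 measured of 19 listed was 1641 to 1719 at 160dG, against 2485 to 4155 at 60dG. Without the 2 embryonic globins HBE1 and HBZ, the other 9 summed to 1499 to 1587 at 160dG, against 1059 to 1235 at 60dG, without overlap. The part of red cells in the difference of SLC4A1 was not tested.

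SLC4A2, a widely expressed exchanger of basolateral membranes, had 211 and 343 at 60dG, 250, 120 and 500 at 90dG, 287, 371 and 216 at 125dG, and 244, 51.8 and 66.9 at 160dG. Low signals appeared in 160dG replicates 2 and 3, while replicate 1 lay among the earlier arrays, and the difference of -1.33 ± 0.56 between 160dG and 60dG did not pass (adjusted p = 0.15). SLC4A1AP, named for binding band 3 and not a transporter itself, ranged from 135 to 296 without a call. SLC4A3, SLC4A5, SLC4A7 and SLC4A10 lay below the filter. SLC4A3 had 133 and 43.1 at 60dG and no more than 20.5 on any later fetal array, a difference of -1.64 ± 0.45 between 160dG and 60dG in the fit without a filter (adjusted p = 0.043).

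SLC26A2, a sulfate-chloride exchanger known for its role in cartilage, was high at the last fetal stage. Its signal was 256 and 309 at 60dG, 258, 120 and 198 at 90dG, 221, 320 and 268 at 125dG, and 706, 909 and 477 at 160dG. All 3 arrays at 160dG lay above the other 8, and the earlier stages overlapped. The difference was 1.22 ± 0.31 between 160dG and 60dG (limma, adjusted p = 0.0199), and 1.29 ± 0.28 between 160dG and 125dG (adjusted p = 0.0872, unadjusted 0.000363). Over all stages the F passed with an adjusted p of 0.0034, and in each of 21 alternative settings. The call between 160dG and 60dG was lost in 4 of 21, namely without either 60dG array and without 160dG replicate 1 or replicate 2. SLC26A4 (pendrin, the apical chloride-bicarbonate exchanger of base-secreting intercalated cells) ranged from 6.2 to 75.2 over the fetal arrays, and SLC26A1, SLC26A3 and the pseudogene SLC26A10P from 5.9 to 139. None of these passed the filter.

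In the V1 sector of the proton pump, both isoforms of the B subunit had calls that rested on few arrays. ATP6V1B1, the isoform of intercalated cells, had 126 and 55.1 at 60dG, 177, 258 and 300 at 90dG, 276, 172 and 189 at 125dG, and 265, 182 and 351 at 160dG. Both 60dG arrays lay below all 9 later ones. It was 1.44 ± 0.35 higher at 160dG than at 60dG (limma, adjusted p = 0.0163) and 1.34 ± 0.35 higher at 90dG (adjusted p = 0.0315). Without 60dG replicate 2, its dimmest array, both calls were lost (0.94, adjusted p = 0.196, and 0.84, adjusted p = 0.266). The call at 160dG was also lost when 160dG replicate 3 was left out (1.23, adjusted p = 0.0628). ATP6V1B1 passed the filter only through the later stages: its mean log2 was 6.65 at 60dG and 7.73 over all fetal arrays, against a filter of 7.598. Without the 90dG group it did not pass the filter. In the limma fit with no filter, the call at 160dG held (adjusted p = 0.0304). The call at 90dG (adjusted p = 0.0558) and the F (adjusted p = 0.066) did not. Other genes of intercalated cells did not move alike. AQP6, a channel of their vesicles, was higher at 160dG than at 60dG (1.89 ± 0.28, adjusted p = 0.000512), while the transcription factor TFCP2L1 (-0.08, adjusted p = 0.897) and the receptor KIT (0.19, adjusted p = 0.653) did not pass.

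ATP6V1B2, the B isoform of most tissues, was highest on average at 90dG. Its signal was 328 and 257 at 60dG, 780, 600 and 496 at 90dG, 366, 484 and 409 at 125dG, and 557, 332 and 432 at 160dG. Every 90dG array lay above every 60dG and 125dG array, but 160dG replicate 1 lay above 90dG replicate 3. The fall from 90dG to 125dG did not pass (-0.54 ± 0.22, limma, adjusted p = 0.156). The difference was 1.04 ± 0.25 between 90dG and 60dG (limma, adjusted p = 0.0198) and 0.54 ± 0.25 between 160dG and 60dG, which did not pass (adjusted p = 0.187). The call at 90dG was lost without 60dG replicate 1 (adjusted p = 0.073) and without 60dG replicate 2 (adjusted p = 0.149). The F of ATP6V1B2 was lost in 12 of 22 settings and that of ATP6V1B1 in 10 of 20. Whether the isoforms differ in their change was not tested.

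ATP6V1A, the catalytic subunit, was higher at the later stages. Signals were 989 and 1145 at 60dG, 1074, 1107 and 780 at 90dG, 1399, 1306 and 1424 at 125dG, and 1321, 1651 and 1587 at 160dG, so that all later arrays lay above all earlier ones. The F passed (adjusted p = 0.0438) but was lost in 15 of 22 settings, and the difference of 0.50 ± 0.19 between 160dG and 60dG did not pass (adjusted p = 0.101). ATP6V1C1, which bridges the 2 sectors, had 202 to 493 over the fetal arrays, and ATP6V1D of the central stalk 277 to 914; 90dG replicate 3 was the lowest array for both and for ATP6V1A and ATP6V1G1. ATP6V1G1 of the peripheral stalk gave 735 to 1600 and ATP6V1H, a regulatory subunit, 258 to 525. None of these 4 passed, with differences between 160dG and 60dG from -0.14 to 0.42. ATP6V1E1 and ATP6V1G2 lay below the filter; ATP6V1E1 had 199, 210 and 233 at 160dG, against 117 and 34 at 60dG.

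In the V0 sector, 2 of 6 tested subunits were called between 160dG and 60dG, and 2 of 6 between 90dG and 60dG. ATP6V0B, a proteolipid of the rotating membrane ring, had 977 and 1079 at 60dG, 1462, 1527 and 1683 at 90dG, 1568, 1552 and 1309 at 125dG, and 1934, 1690 and 1689 at 160dG. Again both 60dG arrays were the lowest. The difference was 0.77 ± 0.16 between 160dG and 60dG (limma, adjusted p = 0.00519) and 0.59 ± 0.16 between 90dG and 60dG (adjusted p = 0.0331). Without 60dG replicate 1 the call at 160dG was lost (adjusted p = 0.076), and that at 90dG was lost in 8 of 21 settings. ATP6V0C, the main ring proteolipid, had 2666 and 2371 at 60dG, 3993, 3468 and 4045 at 90dG, 3461, 3752 and 2884 at 125dG, and 3319, 3015 and 4041 at 160dG. Every later array lay above both at 60dG, and it was called between 90dG and 60dG (0.60 ± 0.16, adjusted p = 0.0366, lost in 10 of 21 settings) but not between 160dG and 60dG (0.45 ± 0.16, adjusted p = 0.1).

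ATP6V0D1, which couples the ring to the stalk, had 638 and 806 at 60dG, 1063, 1029 and 1030 at 90dG, 890, 1210 and 978 at 125dG, and 1091, 1033 and 1133 at 160dG. Its call between 160dG and 60dG was marginal (0.59 ± 0.18, adjusted p = 0.0449) and was lost in 13 of 22 settings. ATP6V0A1, an isoform of the large a subunit through which protons pass, had 288 to 442 over the fetal arrays with overlapping stages (0.09 ± 0.21). ATP6V0E1 gave 481 to 984 (0.46 ± 0.21). ATP6V0E2 was the only tested subunit of the sector with lower signals late, at 208, 178 and 163 at 160dG, against 235 and 288 at 60dG (-0.48 ± 0.25, adjusted p = 0.268). ATP6V0A2 lay below the filter.

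**Figure D2:**
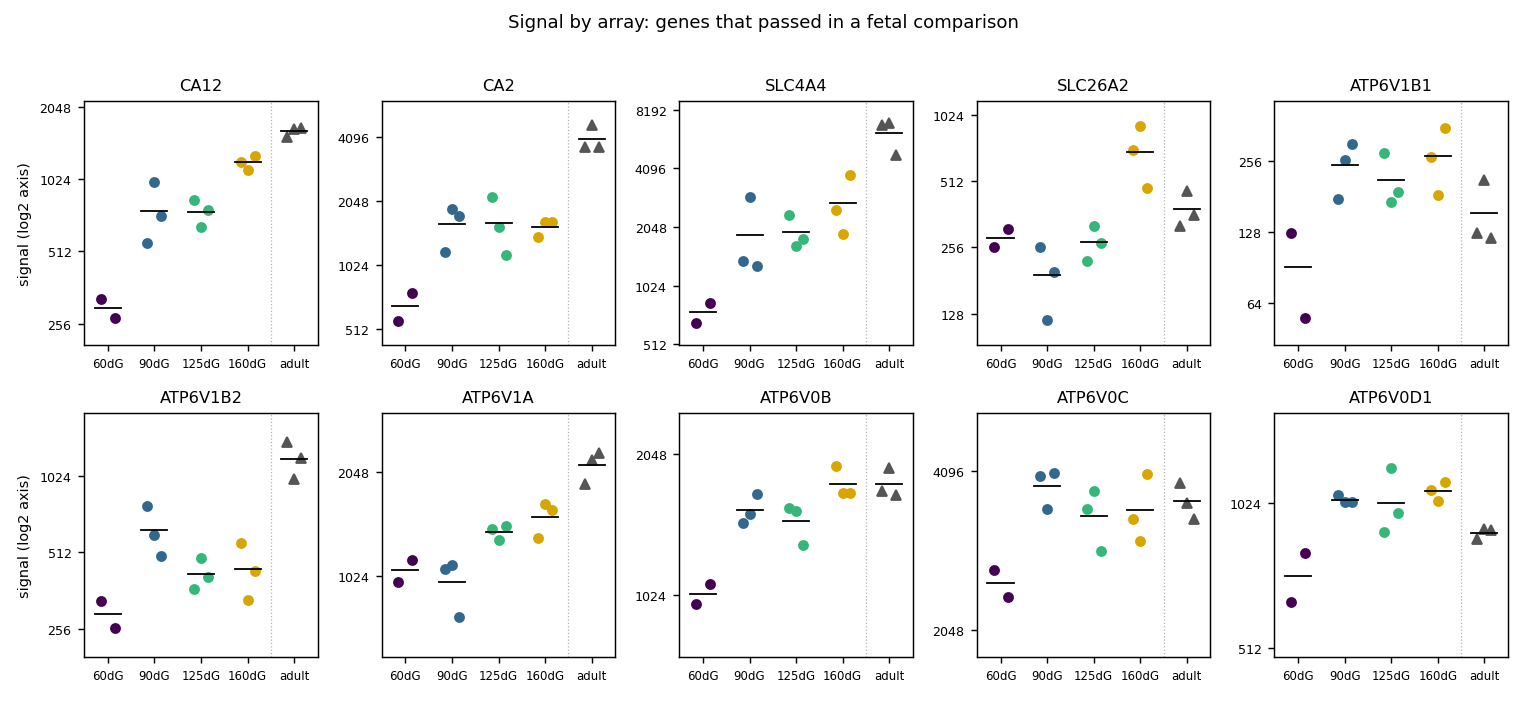
Signal of each array (points, log2 axis) for the genes called in a fetal comparison, by stage from 60dG to 160dG and in adults (triangles, another array type, right of the dotted line); short lines are group means. Both 60dG arrays are the lowest of the fetal arrays for CA12, CA2, SLC4A4, ATP6V1B1, ATP6V1B2, ATP6V0B, ATP6V0C and ATP6V0D1, while SLC26A2 is high at 160dG alone.

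**Figure D3:**
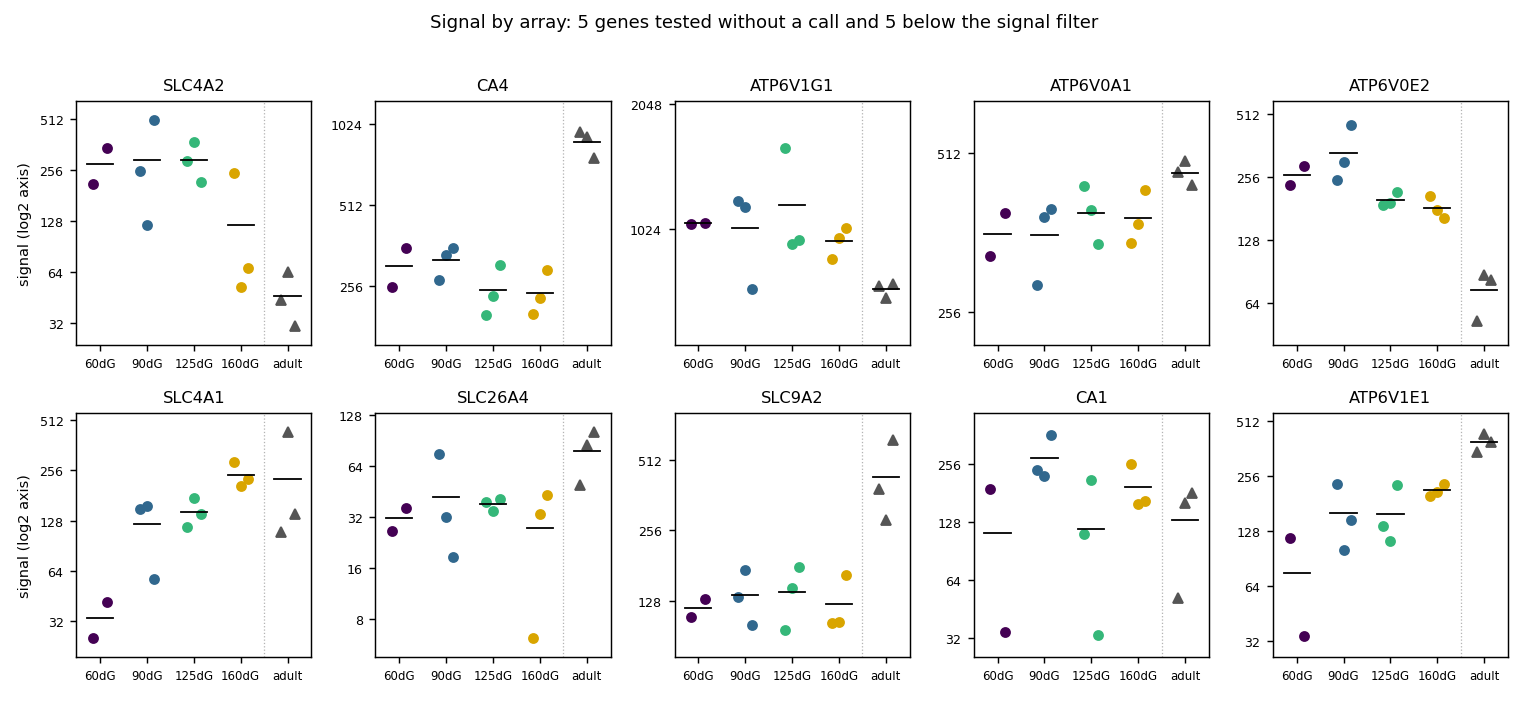
Signal of each array (points, log2 axis; adults as triangles on another array type) for 5 genes tested without a fetal call (upper row) and 5 whose fetal mean lay below the filter (lower row), with group means as lines. SLC4A1 runs from 25.4 at 60dG to 288 at 160dG, while the fetal points of CA4 overlap between stages and its adult points lie between 768 and 958.

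Several genes had more than 1 probe set (11 of 38), and not all of these agreed. For CA12, 4 of 5 probe sets were higher at 160dG than at 60dG, by 0.55 to 1.97, and the fifth differed by -0.05; in a fit over all probe sets, a second one also passed (1.37 ± 0.26, adjusted p = 0.00363). For SLC4A4 all 3 were higher, by 0.95 to 1.80, and a second one passed as well (0.95 ± 0.27, adjusted p = 0.0394), although between 90dG and 60dG it differed by 0.09 only. The second probe set of ATP6V1A had 358, 556 and 397 at 160dG, against 245 and 79.4 at 60dG, and passed (1.5 ± 0.43, adjusted p = 0.0411). The other ATP6V0E1 probe sets differed by -0.15 to 0.36.

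**Figure D4:**
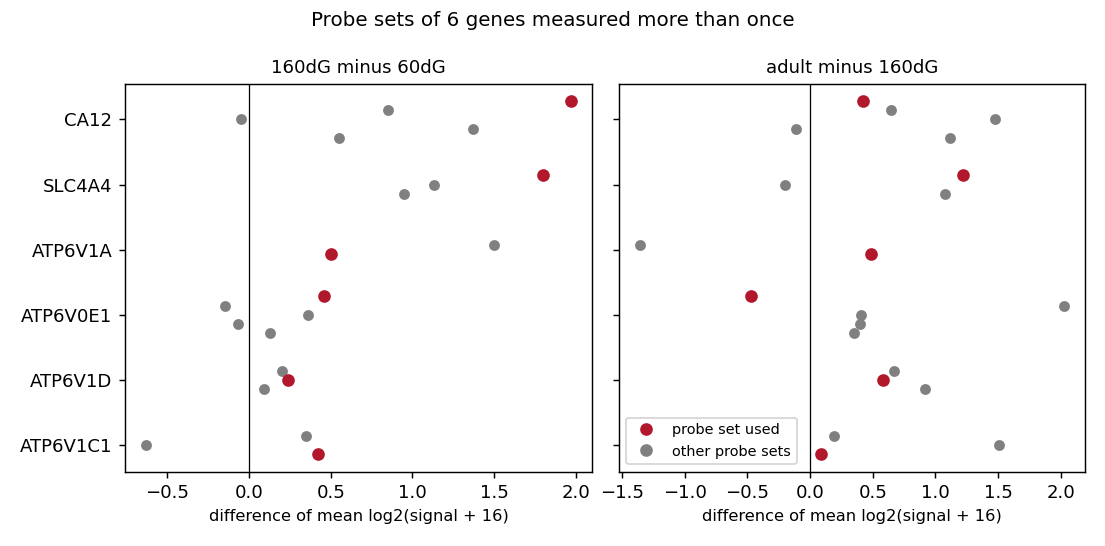
Differences of mean log2(signal + 16) for every probe set of 6 genes, 160dG minus 60dG on the left and adult minus 160dG on the right, with the probe set used in red. The CA12 and SLC4A4 probe sets lie at or above -0.05 on the left, while those of ATP6V1A and ATP6V0E1 take both signs on the right.

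In adult kidney, CA2, CA4, SLC4A4, ATP6V1B2 and SLC9A2 had signals more than 2-fold above those at 160dG without overlap. Adult and fetal arrays are of different types, so age and array type cannot be told apart and no test was made. Of 22 genes brighter than the median probe set over the 6 arrays (a signal of 191.3), these 5 were past 2-fold and none was lower past 2-fold, where 8.37% of all genes were higher and 17.4% moved in either direction. SLC9A2 passed that filter only through its adult signals and so had to differ; among the 20 genes whose 160dG mean alone lay above it, 4 were past 2-fold. Groups did not overlap for 15 of the 22, with 11 higher and 4 lower in adults (53.7% of all genes did not overlap). Those 11, SLC9A2 among them, also lay above all 11 fetal arrays, as did 18.5% of all genes. These counts are a description only. Over all 9580 genes without a filter the median difference was 0.12, and over the 5283 genes above the filter it was 0.0. Age and array type cannot be told apart in that shift either.

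CA4 differed most among these, with 958, 920 and 768 in adults, against 203, 232 and 294 at 160dG, a log2 difference of 1.80. Its other probe set was dim and overlapped, at 127.3, 32.9 and 192.1 in adults, against 95.6, 59.0 and 102.1 at 160dG (0.19). CA2 had 3679, 4637 and 3656 in adults, against 1384, 1638 and 1632 at 160dG (1.35). SLC4A4 reached 6793, 6960 and 4814, against 2502, 1886 and 3790 at 160dG (1.22; 0.98 without 160dG replicate 2), and its other probe sets differed by 1.08 and -0.20. CA12 had 1534, 1658 and 1669 in adults, against 1211, 1120 and 1285 at 160dG (0.42). Its other 4 probe sets disagreed, from -0.11 to 1.48, and one with bright signals had 1336, 1597 and 1240 in adults, against 706, 444 and 795 at 160dG (1.12). SLC9A2, an apical sodium-proton exchanger, had 385, 283 and 622 in adults, against 103, 104 and 164 at 160dG (1.63). The summed proximal tubule markers were 23731 to 25157 in adults, against 7809 to 18486 at 160dG, and their part in these differences was not tested.

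**Figure D5:**
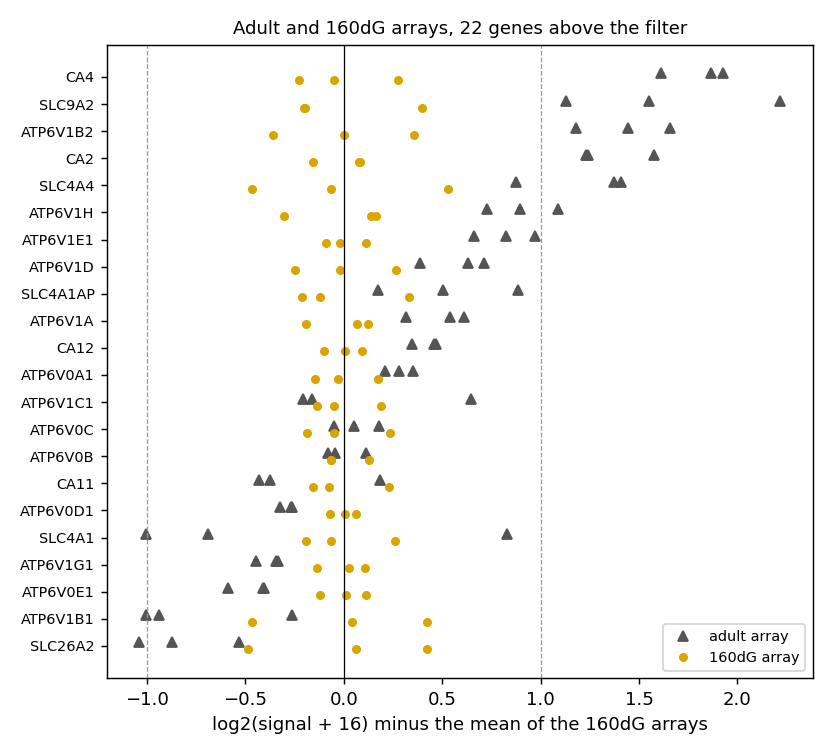
For each of 22 genes above the filter, log2(signal + 16) of every adult array (triangles) and every 160dG array (circles) minus the mean of the 160dG arrays; dashed lines mark a 2-fold difference. CA4, SLC9A2, ATP6V1B2, CA2 and SLC4A4 lie highest, and ATP6V1B1 and SLC26A2 lowest.

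The B subunit isoforms had opposite signs here. ATP6V1B2 had 1395, 996 and 1200 in adults, against 557, 332 and 432 at 160dG (1.43), without overlap. ATP6V1B1 had 127, 212 and 120 in adults, against 265, 182 and 351 at 160dG (-0.74), with overlap. Other V1 subunits with all adult arrays above all 160dG arrays were ATP6V1H with 544, 703 and 613 in adults, against 357, 258 and 362 at 160dG (0.90), ATP6V1E1 (0.82), ATP6V1D (0.58) and ATP6V1A (0.49), and in the V0 sector ATP6V0A1 (0.28). The second probe sets of ATP6V1A (-1.36) and ATP6V0A1 (-0.05) had the opposite sign. ATP6V0E1 had 589, 518 and 588 in adults, against 850, 791 and 721 at 160dG (-0.47), but its 4 other probe sets were higher in adults, by 0.35 to 2.03. ATP6V1G1 was at 747, 697 and 754 in adults, against 866, 972 and 1031 at 160dG (-0.37), and ATP6V0D1 differed by -0.28.

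SLC26A2 had 320, 462 and 361 in adults, against 706, 909 and 477 at 160dG (-0.81), without overlap. SLC4A1 had 110, 435 and 141 in adults, against 288, 206 and 226 at 160dG (-0.29), with adult replicate 2 above and the other two below the 160dG arrays. The summed red cell markers were 3053 to 3198 in adults, against 1641 to 1719 at 160dG. Below the filter, ATP6V0E2 was at 52.6, 87.3 and 83.1 in adults, against 208, 178 and 163 at 160dG (-1.16), and SLC4A2 at 43.5, 63.7 and 30.6, against 244, 51.8 and 66.9 (-0.91). Pendrin, SLC26A4, had 49.7, 85.5 and 102 in adults, against 6.2, 33.5 and 43.2 at 160dG (1.20), SLC26A1 had 214, 152 and 103, against 47.7, 39.9 and 66.5 (1.32), and CA3, an enzyme of muscle and fat, had 50.6, 50 and 237, against 5.3, 6.8 and 4.7 (2.26). ATP6V1G2 had 196, 208 and 230 in adults, against 83.3, 111 and 91.9 at 160dG (1.03). CA8 (-0.95), CA1 (-0.62) and ATP6V0A2 (-0.53) overlapped between the groups, and the other probe sets of CA1 (1.04) and ATP6V0A2 (1.86 and 0.40) were higher in adults. All of these signals are dim.

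Related genes outside the families were compared between 160dG and 60dG, and between 90dG and 60dG, as counts. Of 6 tested assembly and accessory genes of the pump, limma called 0 between 160dG and 60dG, with 3 at an unadjusted p under 0.05, while ATP6AP1, an accessory subunit, was higher at 90dG than at 60dG (0.76 ± 0.17, adjusted p = 0.017). Of 4 tested genes of ammonia production and the response to acid, PCK1, the enzyme of gluconeogenesis that acid load induces in the proximal tubule, was higher at 160dG with a mean of 483, against 117.5 at 60dG (1.89 ± 0.22, adjusted p = 8.51e-05). PCK1 was also higher at 90dG than at 60dG, with a mean of 477 (1.87 ± 0.22, limma, adjusted p = 0.00047). Its mean at 125dG was 235. EDNRB, an endothelin receptor, was lower at 90dG than at 60dG (-0.72 ± 0.19, adjusted p = 0.033). Of 7 other acid and bicarbonate genes tested, 1 was higher at 160dG (AQP6) and 2 at 90dG (AQP6 and the potassium-chloride cotransporter SLC12A7).

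Markers of other cells also moved over the same stages. Between 160dG and 60dG, 4 of 5 tested thick limb and distal tubule markers were higher, and their summed signal was 5883 to 7466 at 160dG, against 2514 to 2857 at 60dG. Of 4 tested principal cell markers of the collecting duct, SCNN1A was higher (1.83 ± 0.29) and GATA3 lower (-0.65 ± 0.18), and the summed signals overlapped, at 4644 to 5284 at 160dG, against 5042 to 5562 at 60dG. GATA3 had the largest share of these sums, with means of 4003 at 60dG and 2574 at 160dG. Among markers below the filter, HSD11B2 had 381 to 617 at 160dG, against 29.8 to 39.4 at 60dG. KCNE1 and AQP3 were also higher at 160dG without overlap, and AQP4 overlapped. Macrophage and osteoclast markers, cells that also use the proton pump, gave 0 calls among 4 tested in limma, with 1 at an unadjusted p under 0.05, and sums of 1766 to 2155 at 160dG, against 1508 to 1617 at 60dG. Cell cycle genes were lower in 9 of 11 cases, with sums of 2081 to 3166 at 160dG, against 9029 to 9196 at 60dG. Their part in the differences of the acid-base genes was not tested.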

How the data were processed

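RNA from 14 kidneys had been labelled with biotin and hybridised to 1 array each, per the labels. The deposited values are linear signal intensities, 1 per probe set. The submitters' processing notes name GCOS as the authors' software, without version, algorithm or scaling. Trimmed means differed by at most 1.07 times, and intensities were used as deposited. Of 16186 probe sets, 14068 have 1 gene symbol, 735 several and 1340 none, besides 43 controls. Fetal stages were fitted with limma 3.58.1 in R 4.3.3 (lmFit, eBayes with an intensity trend). Since labels only say that replicates are biological, p-values measure the spread between these arrays. In data simulated for 5278 genes, the fit recovered 51% of 2-fold and 93.5% of 4-fold changes between 160dG and 60dG, and 56% and 96% between 90dG and 60dG. Array-by-array values are given for called genes, for a fixed set of acid-base genes and for the 10 largest adult differences each way. Members, lists and tests were chosen with earlier results of these data known. The alternatives tried were quantile normalization, pseudocounts of 1 and 64, a filter at the 0.75 quantile or none, a replicate block, no eBayes trend, every probe set, leaving out each array or the 90dG group and, added after seeing the data, a GAPDH covariate and leaving out 90dG replicates 2 and 3. Figures were drawn with matplotlib 3.10.9. No transcript or protein sequences were used here.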

Additional observations from a re-analysis of the deposited data

How the results depend on the processing

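For single called genes, fetal differences under alternatives kept their direction in all 297 cases and lost the call in 61, and the F lost its call in 41 of 173. Many settings, such as another filter, no eBayes trend or leaving out an array of another stage, cannot change the difference itself. The kept direction was thus fixed in advance there, and only the call could be lost. Of 50 adult differences, which have no test, none changed sign and 1 moved by more than the spread between replicates (CA2, 1.62 with quantile normalization). The 8 genes called by the F over the fetal stages (960 of all genes) became 5 without the 90dG group (464 of all genes). When 1 array of a stage after 60dG was dropped, they were 5 to 9, while calls over all genes ran from 619 to 1064. Dropping the second 90dG array gave 5 (675 of all genes). So did dropping the last array at 125dG (838) or at 160dG (784). Fits that kept only 1 array in a group also lost F calls, among these genes and over all genes. Between 160dG and 60dG the count of 7 (614 of all genes) was 5 without 160dG replicate 2 (528) or replicate 3 (480). It fell further without either 60dG array, as did the count over all genes. Without the 90dG group this count was 5 (665 of all genes). With no filter it was 9 of 38 genes (624 of all genes), with SLC4A1 called higher and SLC4A3 lower at 160dG. Between 90dG and 60dG the count of 7 (481 of all genes) fell to 4 with no filter (389) and 4 without an eBayes trend (410). It fell to 4 with the replicate block (339) and 2 with the GAPDH covariate (217). Leaving out either 60dG array, or 90dG replicates 2 and 3, leaves 1 array in a group and lost calls here and over all genes. From 90dG to 125dG the count was 0 to 2 (2 without 90dG replicate 1), and from 125dG to 160dG it was 0 in each setting run. For adults, the 5 genes past 2-fold (920 of all 5283 genes) became 10 with no filter, where all 38 enter (2113 of all 9580 genes). They were 4 to 6 with 1 array left out (899 to 978 of all genes). Apart from fewer arrays or more genes entering, the cause was not tested. Same-numbered replicates did not deviate together (correlations over genes from -0.114 to 0.179 in 15 pairs), so the numbers were not taken as pairs. With 2 arrays at 60dG, the fit recovered 51% of simulated 2-fold changes between 160dG and 60dG, so a gene without a call may still differ. Changes under 2-fold were not simulated.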
